A study of Mus musculus with 10 samples.

Results

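The 10 genes described here, Fabp1, Fabp2, Cd36, Slc27a4, Acsl5, Mogat2, Dgat1, Dgat2, Gpat3 and Plin2, encode proteins that take up dietary fatty acids, carry and activate them, rebuild triglyceride from them and coat the lipid droplets that store it. They were chosen by name, with earlier results of these data known, among 54838 genes listed for each library. All 10 passed the filter on low counts that left 14719 genes to test. RNA was sequenced from jejunal crypts of 5 wild-type (WT) and 5 Arid3a conditional knockout (cKO) mice, with 1 library for each animal. The cKO animals carried VillinCre-ERT2+/- and Arid3a fl/fl, so that tamoxifen activated the Cre recombinase under the Villin promoter, which is active in intestinal epithelial cells and not in other cells of the gut wall. Both genotypes received tamoxifen on 3 consecutive days and were sampled 1 month later, after the villi had been scraped off. Whether the WT animals carried Cre or a floxed allele, and the age of the animals, is not given in the sources used here. The animal identifiers of the WT mice and of the cKO mice belong to different series, so colony or litter and genotype cannot be told apart.

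An enterocyte takes fatty acids and monoacylglycerol from the gut lumen, binds them in the cytosol, joins the fatty acids to coenzyme A and assembles triglyceride again at the endoplasmic reticulum. Triglyceride then leaves the cell in chylomicrons or stays for a while in lipid droplets. In the jejunum this programme belongs mainly to mature enterocytes of the villus, and crypts, which hold stem cells, dividing progenitors and Paneth cells, normally carry less of it.

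Arid3a, the gene deleted in the cKO mice, held 1.91, 2.07, 2.75, 2.68 and 2.69 CPM (counts per 1000000 counts of the library, normalised by TMM) in WT replicates 1 to 5 and 0.303, 0.516, 0.490, 0.884 and 1.17 CPM in cKO replicates 1 to 5. It fell by 1.84 on the log2 scale (SE 0.32, edgeR quasi-likelihood test, adjusted p = 0.00204), and every cKO library lay below every WT library. Library totals were 27050455 to 28152743 counts in WT and 28314069 to 31053622 in cKO. Over all genes tested, 2298 were higher in cKO (15.6%) and 1869 lower (12.7%) at an adjusted p under 0.05, and with library totals in place of TMM the split was 1541 higher and 4030 lower. The median log2 fold change of all genes was -0.03, and -0.16 with library totals.

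Of the 10 lipid genes, 9 rose in cKO crypts and 0 fell, against 15.6% and 12.7% of all genes tested. The genes were chosen with earlier results of these data known, so this comparison is a description. The 9 that rose were Fabp1, Fabp2, Cd36, Slc27a4, Acsl5, Mogat2, Dgat1, Dgat2 and Gpat3, with log2 fold changes between 0.90 and 2.29. Plin2 did not pass the test. Without cKO replicate 5, and likewise without the filter on low counts, 5 of the 10 passed (Slc27a4, Acsl5, Dgat1, Dgat2 and Gpat3). The median log2 fold change of the 10 genes was 1.27, beside -0.03 for all genes. In 8 of the 10, every cKO library lay above every WT library in CPM, which held for 12.0% of all genes. The exceptions were Fabp1 and Plin2. The villus enterocyte markers, a separate list, rose in the same libraries: 15 of 15 were higher in cKO, with a median log2 fold change of 1.63. In a bulk sample, more cells of a type and more RNA per cell cannot be told apart.

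**Figure D1:**
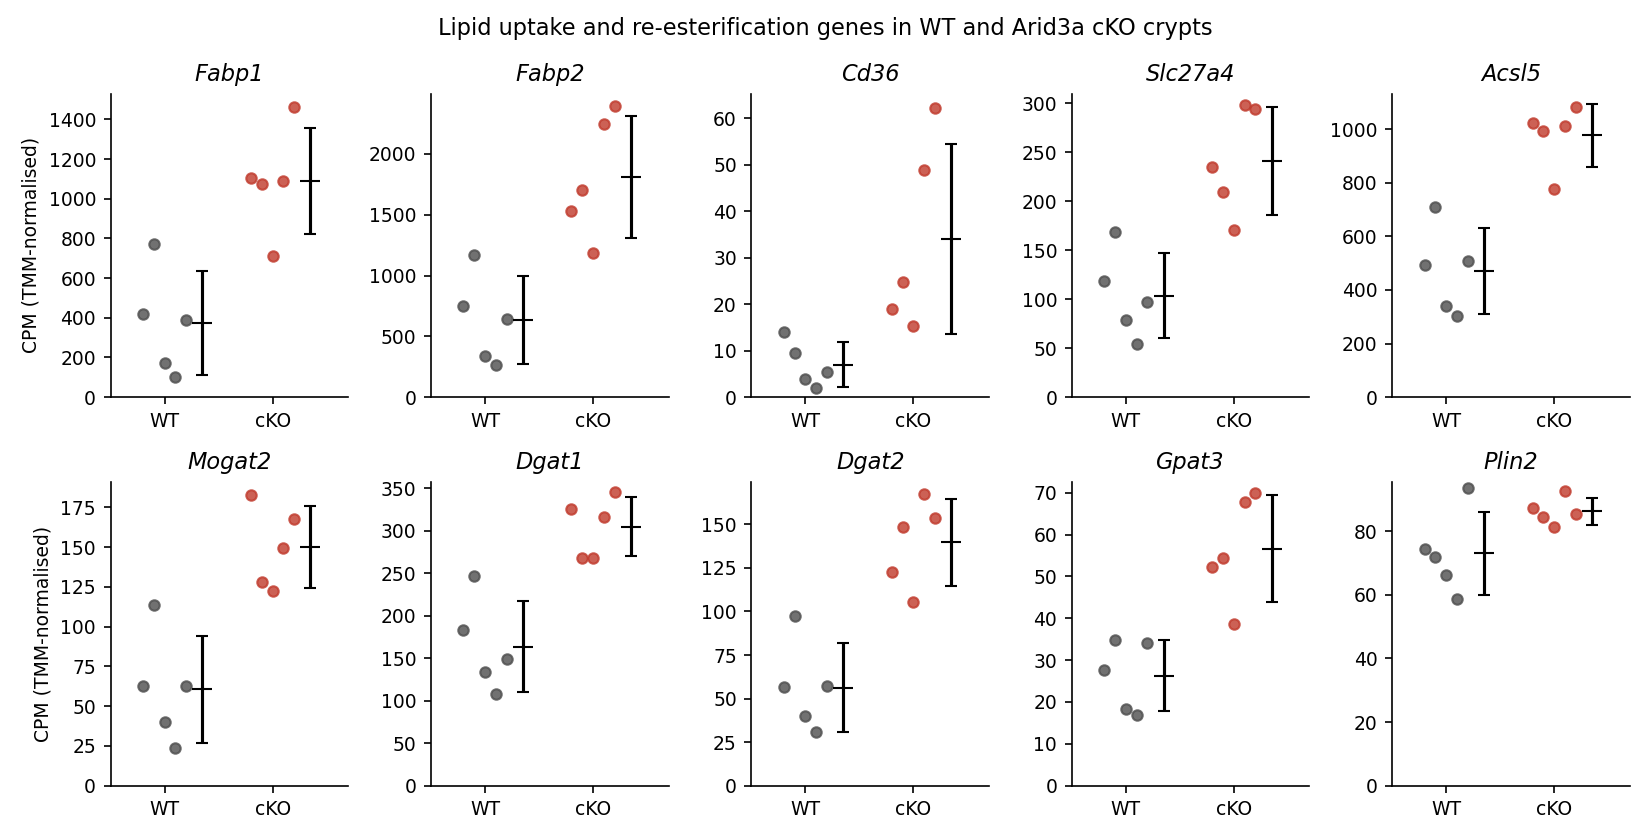
CPM (TMM-normalised, linear axis from 0) of the 10 genes in each of 5 WT (grey) and 5 cKO (red) crypt libraries, in the order of replicates 1 to 5 from left to right, with the mean and SD beside the points. WT replicate 4 was the lowest WT library for all 10 genes, and the 2 groups overlapped only for Fabp1 and Plin2.

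RefSeq promoter windows of GRCm38.p6, 250 bases before to 50 bases after an annotated start, were found for 7 of the 10 genes, and not for Mogat2, Dgat1 and Dgat2. They were searched on both strands for 5 short motifs: the TATA box TATAAA, the HNF4 motif CAAAGTCCA, the HNF1 core GTTAAT, the A+T-rich hexamer ATTAAA, and the direct repeat AGGTCANAGGTCA with up to 2 mismatches. The direct repeat is the kind of site that PPAR and HNF4 dimers bind. It matched in Fabp1, Cd36 and Plin2, and in 3.86% of all 32851 windows. A stretch of 120 bases around each match is printed here 5′ to 3′ on the strand of the gene, since these are a strongly raised gene of fatty acid binding, the gene with the largest log2 fold change of the 10, and the gene that did not pass. Capitals mark the motif matches.
Fabp1: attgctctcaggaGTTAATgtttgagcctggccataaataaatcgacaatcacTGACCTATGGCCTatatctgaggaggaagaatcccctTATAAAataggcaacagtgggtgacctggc
Cd36: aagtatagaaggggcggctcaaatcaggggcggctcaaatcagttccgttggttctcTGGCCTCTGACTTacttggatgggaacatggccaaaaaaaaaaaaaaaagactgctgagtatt
Plin2: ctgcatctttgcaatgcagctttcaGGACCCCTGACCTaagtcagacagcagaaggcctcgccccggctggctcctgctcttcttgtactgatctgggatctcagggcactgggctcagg
The Fabp1 stretch lies at chr6:71199759-71199878 on the plus strand, at positions -120 to -1 from the RefSeq start. Its capitals are the HNF1 core at -107, the repeat at -67 on the opposite strand with 1 mismatch, and the TATA box at -30. The GENCODE model of Fabp1 starts inside this stretch. The Cd36 stretch lies at chr5:17835897-17836016 on the minus strand, before 1 of several annotated starts, and holds the repeat at -63 on the opposite strand with 2 mismatches. In Plin2 the stretch is chr4:86670190-86670309 on the minus strand, positions -250 to -131, with the repeat at -225 on the opposite strand and 2 mismatches. The match thus stood in the windows of 2 genes that rose and of the 1 that did not pass. Fabp2 held ATTAAA at 37 bases after its start. Slc27a4, Acsl5 and Gpat3 held no match to any of the 5 motifs, and CAAAGTCCA was in none of the 7 windows. Of all windows, 13.6% hold TATAAA, 0.475% CAAAGTCCA, 7.1% GTTAAT and 13.9% ATTAAA.

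Both cytosolic fatty acid binding proteins rose. Fabp1, the liver-type binding protein that also carries bile acids and acyl-CoA, is ENSMUSG00000054422 at chr6:71199827-71205023 on the plus strand of GRCm38. WT replicates 1 to 5 held 422, 772, 173, 104 and 391 CPM, and cKO replicates 1 to 5 held 1105, 1076, 712, 1088 and 1462 CPM. WT replicate 2 lay above cKO replicate 3, so the groups overlapped by that 1 pair. The mean was 372 ± 262 CPM in WT and 1089 ± 265 in cKO (SD, n = 5), a log2 fold change of 1.55 (SE 0.49, edgeR, adjusted p = 0.0438). This call was close to the threshold: it was lost in 8 of the 10 fits that left out 1 animal, and kept only without WT replicate 2 or WT replicate 4, with a log2 fold change between 1.31 and 2.0 throughout.

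Fabp2, the intestinal-type binding protein, is ENSMUSG00000023057 at chr3:122895072-122899506 on the plus strand. Its WT libraries held 749, 1173, 338, 268 and 644 CPM and its cKO libraries 1528, 1705, 1188, 2249 and 2391 CPM. The highest WT library (replicate 2) and the lowest cKO library (replicate 3) nearly met. Fabp2 rose by 1.51 on the log2 scale (SE 0.40, edgeR, adjusted p = 0.0218), from 634 ± 363 to 1812 ± 502 CPM (SD, n = 5). Without cKO replicate 5 the adjusted p was 0.0553. The antisense gene 4933405D12Rik overlaps Fabp2, and its share of the reads was not tested.

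The balance of the 2 binding proteins was compared in TPM (transcripts per 1000000 transcripts), a level that is divided by transcript length. The ratio of Fabp1 to Fabp2 was 1.07, 1.25, 0.979, 0.741 and 1.16 in WT replicates 1 to 5 and 1.38, 1.20, 1.14, 0.922 and 1.17 in cKO. Both genes stood at similar levels in every library. The log2 ratio was 0.04 ± 0.29 in WT and 0.21 ± 0.21 in cKO (SD, n = 5), a difference of 0.17 that was within the spread of the libraries (two-sided exact permutation test, p = 0.341, adjusted over 3 ratios p = 0.341).

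Uptake at the membrane was represented by Cd36 and Slc27a4. Cd36 encodes the scavenger receptor and fatty acid translocase, and is ENSMUSG00000002944 at chr5:17781690-17888801 on the minus strand. It was the least abundant of the 10 genes and had the largest log2 fold change among them. WT replicates held 14.1, 9.51, 3.94, 1.88 and 5.46 CPM, and cKO replicates 19.1, 24.8, 15.4, 48.8 and 62.3 CPM. The groups did not overlap in CPM, and cKO replicates 4 and 5 stood well above the other 3 cKO libraries. In TPM they overlapped: WT replicate 1 held 9.26, cKO replicate 1 held 9.1 and cKO replicate 3 held 7.21. RSEM assigned Cd36 a mean transcript length of 1930.9 to 2645.5 bases in WT and 2541.0 to 2653.3 in cKO. The log2 fold change was 1.94 with limma on log2 TPM (adjusted p = 0.0238). Cd36 rose by 2.29 (SE 0.59, edgeR, adjusted p = 0.0200), a fold change of 4.89 with a 95% interval from 1.94 to 12.3. The adjusted p was 0.0501 without cKO replicate 5 and 0.0851 without WT replicates 3 and 4. Cd36 is also expressed by macrophages and endothelial cells. Of 8 macrophage markers, 2 were lower and 0 higher, against 12.7% and 15.6% of all genes tested. Summed, they held 28.2 to 74.0 CPM in WT and 12.9 to 101 in cKO. Of 8 endothelial markers only 4 passed the filter, their list summed to 4.86 to 8.93 CPM in WT and 2.84 to 4.18 in cKO, and 2 were lower. The highest macrophage sum, 101 CPM, was in cKO replicate 4, while cKO replicate 5 held 33.2, and the part of these cells in the Cd36 result was not tested.

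Slc27a4 (FATP4) encodes a fatty acid transport protein with acyl-CoA synthetase activity, and is ENSMUSG00000059316 at chr2:29802634-29817522 on the plus strand. Its levels were 119, 169, 78.4, 54.4 and 96.8 CPM in WT and 235, 210, 170, 298 and 294 CPM in cKO. WT replicate 2 again came close to cKO replicate 3 without reaching it. Slc27a4 rose by 1.22 (SE 0.29, edgeR, adjusted p = 0.0135), and the call held in all 20 alternative fits.

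Acsl5 encodes a long-chain acyl-CoA synthetase, the activating step before esterification, and is ENSMUSG00000024981 at chr19:55251938-55297720 on the plus strand. WT libraries held 492, 709, 340, 302 and 508 CPM and cKO libraries 1021, 991, 776, 1012 and 1080.5 CPM. All cKO libraries lay above all WT libraries, and 4 of the 5 cKO values were within a narrow band. Acsl5 rose by 1.05 (SE 0.21, edgeR, adjusted p = 0.00517), the smallest adjusted p of the 10 genes. Zdhhc6 overlaps Acsl5 on the opposite strand, and the strand setting of the counting is not stated. Zdhhc6 had a log2 fold change of -0.00.

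The acyl chain then enters glycerolipid by 2 routes. Mogat2, the monoacylglycerol acyltransferase of the enterocyte route, is ENSMUSG00000052396 at chr7:99219084-99238619 on the minus strand. It held 62.8, 114, 39.7, 23.9 and 62.6 CPM in WT and 183, 128, 122, 150 and 168 CPM in cKO. No cKO library fell below a WT library, although WT replicate 2 was near the lowest of them. Mogat2 rose by 1.31 (SE 0.36, edgeR, adjusted p = 0.0257). The call was lost without WT replicate 3, WT replicate 5, cKO replicate 1 or cKO replicate 5, with an adjusted p of at most 0.0600. The antisense gene Gm45012 overlaps Mogat2 and had 1 to 14 counts per library. Gpat3, which acylates glycerol-3-phosphate at the start of the other route, is ENSMUSG00000029314 at chr5:100845713-100899102 on the plus strand. Its WT libraries held 27.5, 34.7, 18.3, 16.9 and 34.0 CPM and its cKO libraries 52.3, 54.3, 38.7, 67.8 and 69.9 CPM. Gpat3 rose by 1.11 (SE 0.24, edgeR, adjusted p = 0.00793), and here too the highest WT library lay just under cKO replicate 3. An antisense gene at this locus, 4930458D05Rik, had 36 to 92 counts per library and a log2 fold change of 0.81, so reads could be shared between them.

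The ratio of Mogat2 to Gpat3 in TPM was 3.84, 5.44, 3.49, 2.26 and 2.93 in WT and 5.83, 3.76, 5.16, 3.54 and 3.75 in cKO. Its log2 value was 1.78 ± 0.47 in WT and 2.11 ± 0.32 in cKO (SD, n = 5). The difference of 0.33 did not exceed the spread between libraries (two-sided exact permutation test, p = 0.230, adjusted over 3 ratios p = 0.341).

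Diacylglycerol acyltransferases complete the triglyceride, and both rose. Dgat1, the enzyme of the endoplasmic reticulum that supplies much of intestinal triglyceride, is ENSMUSG00000022555 at chr15:76502015-76511953 on the minus strand. Its levels were 183, 246, 133.5, 107 and 149 CPM in WT and 326, 268, 269, 316 and 345.5 CPM in cKO. Dgat2, an unrelated protein with the same reaction, is ENSMUSG00000030747 at chr7:99153658-99182719 on the minus strand, in the same stretch of chromosome 7 as Mogat2. It held 56.6, 97.4, 39.7, 30.6 and 57.0 CPM in WT and 123, 149, 105, 167 and 154 CPM in cKO. For both genes the groups did not overlap, and WT replicate 2 was the highest WT library. Dgat1 rose by 0.90 (SE 0.19, edgeR, adjusted p = 0.00770), the smallest log2 fold change among the 9 genes that rose. Dgat2 rose by 1.31 (SE 0.29, edgeR, adjusted p = 0.00984). Neither call was lost in any of the 20 alternatives.

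In every WT and cKO library Dgat1 exceeded Dgat2 per length. The TPM ratio of Dgat1 to Dgat2 was 5.68, 4.15, 5.81, 6.09 and 4.86 in WT replicates 1 to 5 and 4.17, 2.89, 4.05, 3.04 and 3.73 in cKO. The groups overlapped by 1 pair, WT replicate 2 and cKO replicate 1. On the log2 scale the ratio was 2.40 ± 0.23 in WT and 1.82 ± 0.24 in cKO (SD, n = 5), a fall of 0.57 (two-sided exact permutation test, p = 0.0159, adjusted over 3 ratios p = 0.0476). In CPM the ratio differed by -0.45, with an adjusted p of 0.119 in the same permutation test. The mean transcript length that RSEM assigned to Dgat1 was 1259.0 to 1416.7 bases in WT and 1397.4 to 1473.1 bases in cKO. That of Dgat2 was 2259.4 to 2262.0 bases in WT and 2246.6 to 2262.0 in cKO. TPM is divided by this length and CPM is not. Without WT replicate 4, cKO replicate 2, cKO replicate 3, cKO replicate 4 or cKO replicate 5, the adjusted p was 0.0714.

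Plin2, the perilipin that coats lipid droplets in most cells, is ENSMUSG00000028494 at chr4:86648386-86670060 on the minus strand. WT replicates held 74.5, 72.0, 66.1, 58.7 and 93.7 CPM, and cKO replicates 87.4, 84.5, 81.2, 92.6 and 85.5 CPM. WT replicate 5 was the highest of the 10 libraries, and the other 4 WT libraries lay below all 5 cKO libraries. The mean was 73.0 ± 13.1 CPM in WT and 86.2 ± 4.22 in cKO (SD, n = 5). Its log2 fold change was 0.24 (SE 0.10, edgeR, adjusted p = 0.104, unadjusted p = 0.0398), with a 95% interval from 0.01 to 0.47. That interval ends below the point estimate of each of the other 9 genes. It overlaps the 95% interval of Fabp1, which begins at 0.44, and differences between genes were not tested. Without WT replicate 5 the log2 fold change of Plin2 was 0.36 (edgeR, adjusted p = 0.0122), and Plin2 passed. In TPM the 2 genotypes were at 66.4 ± 8.80 and 67.5 ± 4.24 (SD, n = 5), and limma on log2 TPM gave a log2 fold change of 0.03 (adjusted p = 0.829). RSEM assigned Plin2 a mean transcript length of 1462.0 to 1564.9 bases in WT and 1542.1 to 1745.8 bases in cKO, and with the effective length as an offset the log2 fold change was 0.12 (edgeR, adjusted p = 0.438).

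**Figure D2:**
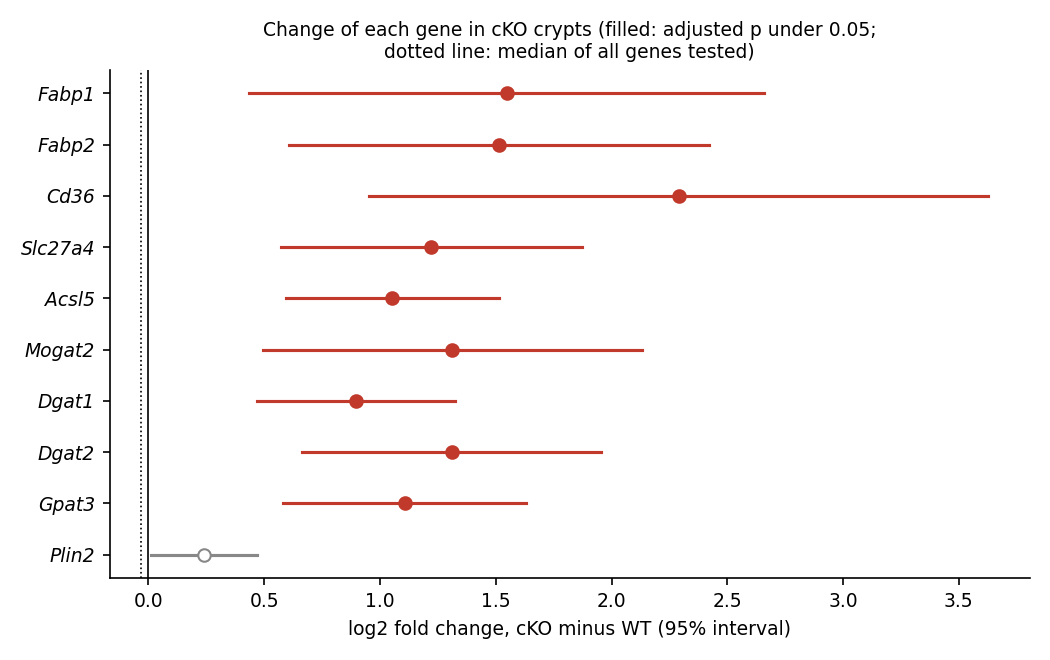
Log2 fold change of each gene, cKO minus WT, on the horizontal axis, with its 95% interval from the edgeR fit over 5 WT and 5 cKO libraries. Filled red points passed an adjusted p of 0.05, the open grey point (Plin2, 0.24) did not, and the dotted line is the median of all genes tested, -0.03.

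Levels between genes were compared in TPM. In WT crypts the order of the means was Fabp1 (1037 TPM), Fabp2 (931), Acsl5 (283), Dgat1 (168), Plin2 (66.4), Mogat2 (45.8), Slc27a4 (33.6), Dgat2 (33.2), Gpat3 (12.2) and Cd36 (4.02). Fabp1 exceeded Fabp2 in 3 of 5 WT libraries and Slc27a4 exceeded Dgat2 in 2 of 5, so neither pair of neighbours differed beyond its spread. Plin2 exceeded Mogat2 in 4 of 5 WT libraries, and the ranges of these 2 genes overlapped. In cKO crypts the order was Fabp1 (2889 TPM), Fabp2 (2531), Acsl5 (592), Dgat1 (274), Mogat2 (108), Dgat2 (78.2), Slc27a4 (74.0), Plin2 (67.5), Gpat3 (25.3) and Cd36 (16.5). Plin2 moved from rank 5 to rank 8, while its own TPM stayed within 59.1 to 80.3 in WT and 63.2 to 73.7 in cKO. In cKO, Slc27a4 exceeded Plin2 in 3 of 5 libraries and Dgat2 exceeded Slc27a4 in 3 of 5, so these neighbours did not differ beyond their spread. The ranges of Acsl5 and Dgat1 overlapped in WT and were apart in cKO, at 473 to 637 and 231 to 313 TPM.

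**Figure D3:**
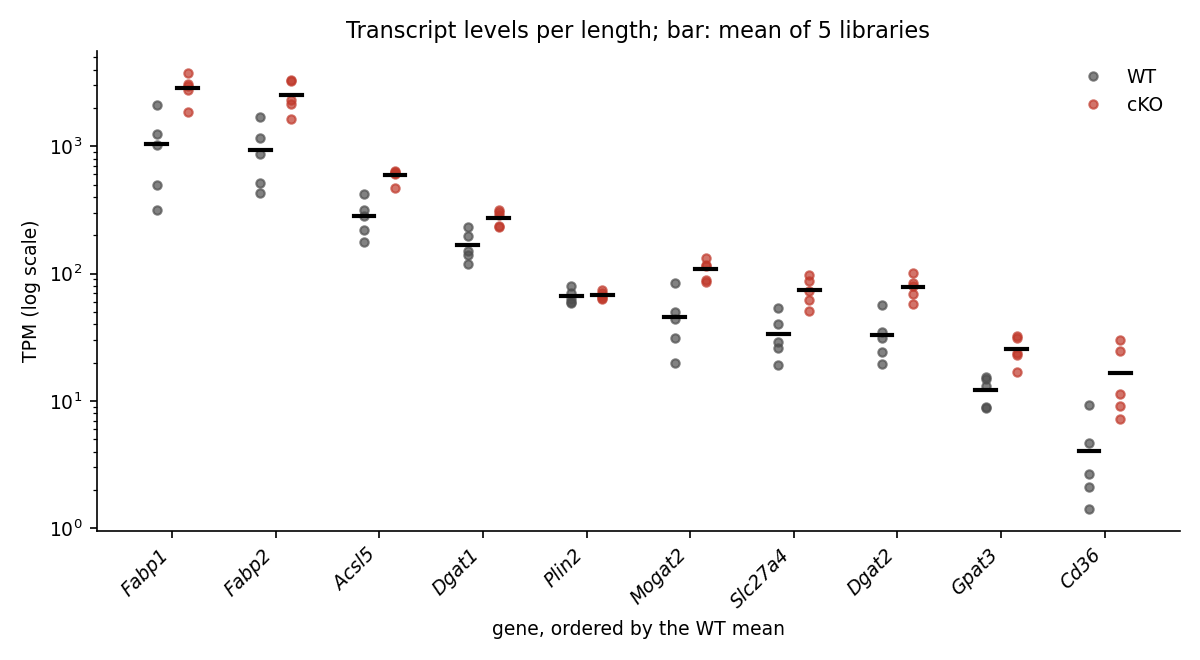
TPM (log axis) of the 10 genes, ordered by the WT mean, in 5 WT (grey) and 5 cKO (red) libraries, with a bar at the mean. Fabp1 and Fabp2 lead in both genotypes, Cd36 is lowest in both, and the Plin2 points of WT (59.1 to 80.3 TPM) and cKO (63.2 to 73.7 TPM) lie on each other.

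Together the 10 genes made up 0.117% to 0.474% of all TPM in WT libraries (median 0.252%) and 0.448% to 0.840% in cKO libraries (median 0.639%). Fabp1 and Fabp2 accounted for most of it, with 0.0747% to 0.381% in WT and 0.349% to 0.704% in cKO. In TPM, 4 of the 10 genes (Acsl5, Mogat2, Dgat2 and Gpat3) had every cKO library above every WT library, against 6.43% of all genes, where 8 of 10 did so in CPM. Total TPM is fixed in each library, whereas TMM rescales CPM between libraries, and the TMM factors were 1.0043 to 1.0829 in WT and 0.9339 to 0.9862 in cKO.

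The 10 genes varied together among animals of the same genotype. WT replicate 4 was the lowest WT library for all 10 genes and WT replicate 3 the second lowest for all 10. WT replicate 2 was the highest for 8 of 10, and cKO replicate 3 was the lowest cKO library for 9 of 10. The spread was wide in WT: the highest library held 7.42 times the lowest for Fabp1, 7.50 times for Cd36 and 4.74 times for Mogat2. It was narrower in cKO, at 2.05, 4.05 and 1.50 times. Plin2 spread least in both, 1.60 times in WT and 1.14 times in cKO. Deviations of log2 CPM from the genotype means correlated across the 10 libraries with a Pearson r between 0.677 and 0.984 (median 0.918) over the 36 pairs of genes that leave out Plin2, and between 0.391 and 0.750 (median 0.579) for the 9 pairs with Plin2. The libraries share their normalisation and their mix of cells, so these values are a description.

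Among 10471 genes with a mean of at least 5 CPM, the 5 outside the list whose deviations were most like the mean deviation of the 10 genes were Cyp2d26 (Pearson r = 0.995, Spearman rho = 0.988), Pdzk1 (r = 0.994), Spink1 (r = 0.991), 2010106E10Rik (r = 0.990) and Gramd3 (r = 0.990), over 10 libraries. Without the 2 libraries farthest from the median, WT replicates 2 and 4, r was between 0.976 and 0.994 for these 5 genes. Pdzk1 encodes a scaffold protein of the brush border. All 5 rose in cKO crypts, with log2 fold changes between 1.11 and 2.05, beside 15.6% of all genes tested that were higher. They were picked for their likeness to the 10 genes, so their rise is a description.

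The villus enterocyte list (15 genes, among them the brush border enzymes Sis, Lct and Alpi) followed the 10 lipid genes from library to library. Its summed level was 1917 to 6435 CPM in WT and 8066 to 12761 in cKO, lowest in WT replicate 4 and highest in WT replicate 2 among the WT animals. The deviations of the list's log2 sum and the mean deviation of the 10 lipid genes had a Pearson r of 0.953 and a Spearman rho of 0.988 over 10 libraries, and r was 0.859 without WT replicates 2 and 4. Other lists followed the lipid genes within genotypes as well. The r was highest, at 0.979, for the other lipid droplet and lipase genes described below, and 0.941 without WT replicates 2 and 4. It was 0.918 for the villus tip list, 0.875 for the ileal segment list and 0.851 for the goblet cell list. Without WT replicates 2 and 4 these were 0.893, 0.603 and 0.687. The r was 0.869 for the immune cell list, and 0.895 without WT replicates 2 and 4. For other glycerolipid synthesis genes it was 0.84, and 0.672 without WT replicates 2 and 4. For other genes of fatty acid uptake, binding and activation it was 0.829, and 0.409 without WT replicates 2 and 4. The lowest r of any list was -0.73, for the proliferation list. Without WT replicates 2 and 4 the lowest was -0.886, for the Paneth cell list, which had -0.603 over 10 libraries. The immune cell list summed to 103 to 260 CPM in WT and 95.2 to 227 in cKO. The summed CPM of the 10 lipid genes, divided by the summed CPM of the villus enterocyte list, was 0.427 to 0.642 in WT (median 0.505) and 0.402 to 0.505 in cKO (median 0.452), so the ranges overlapped. Villus tip markers were higher for 4 of 10 and lower for 0, against 15.6% and 12.7% of all genes tested. Their median log2 fold change was 0.64. The part of villus cells in the crypt fraction in these results was not tested.

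**Figure D4:**
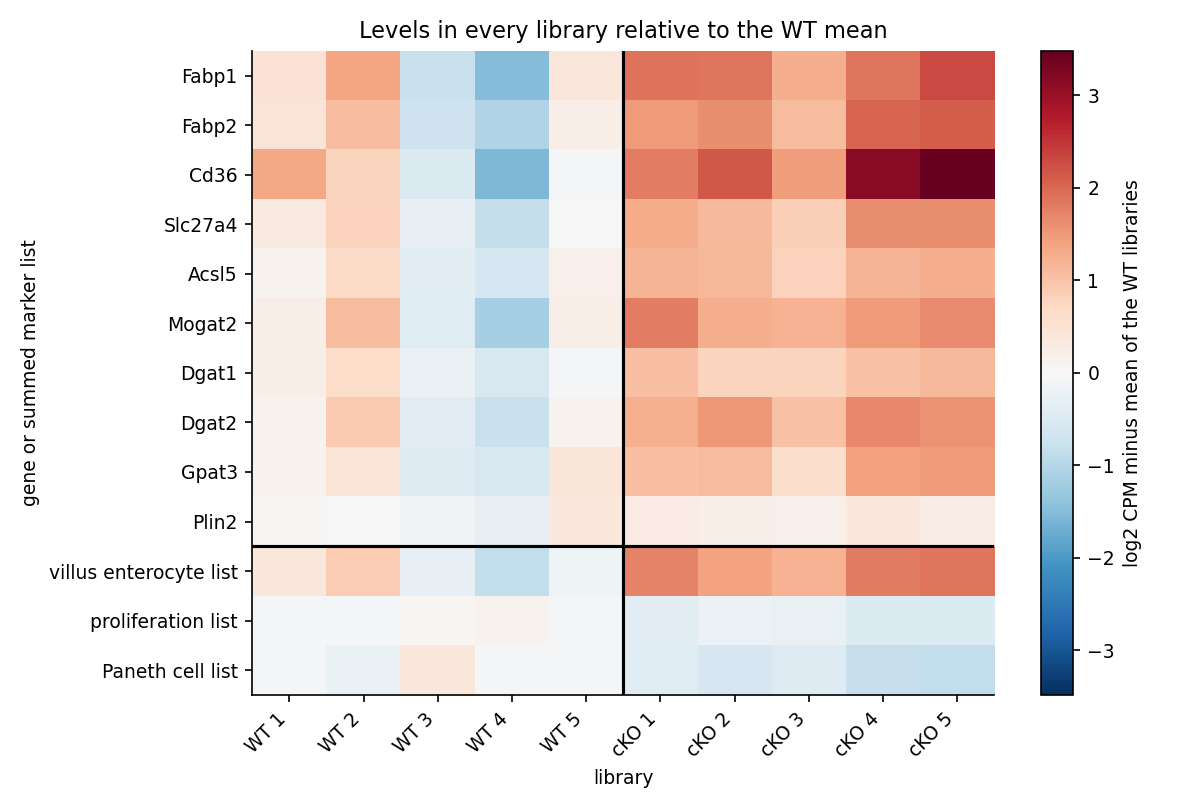
Colour gives log2 CPM minus the mean of the 5 WT libraries, for the 10 lipid genes (rows above the line) and for 3 summed marker lists (rows below it), in each of the 10 libraries (columns). The villus enterocyte row has the same pale and dark columns as the lipid genes, with WT replicate 4 lowest, and the proliferation and Paneth cell rows are lower in all 5 cKO libraries than in all 5 WT libraries.

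Markers of proliferating, stem and Paneth cells moved the other way. Proliferation genes were lower for 7 of 12 and higher for 0 (median log2 fold change -0.35), stem cell genes lower in 5 of 10 and higher in 0 (-0.30), and Paneth cell genes lower in 6 of 8 and higher in 0 (-0.64). The summed stem cell list overlapped between genotypes, at 5562 to 9289 CPM in WT and 4567 to 6747 in cKO. The proliferation and Paneth cell sums did not overlap. Goblet cell genes were lower in 1 of 8 and higher in 0. Enteroendocrine genes were higher in 4 of 9 tested and tuft cell genes in 4 of 8, with 0 lower in either list. Immune cell genes were lower in 1 of 8 and fibroblast and muscle genes in 1 of 8. Over all genes tested, 15.6% were higher and 12.7% lower, and 1 of 8 is near the latter share. Adipocytes, which also make triglyceride, left little trace: Adipoq, Lep and Retn had 0 counts in all 10 libraries, Plin1 at most 4 and Fabp4 at most 20. The 3 tested genes of the adipocyte list (Cidec, Lipe and Adipor2) rose, and Cidec and Lipe also stand in the lipid droplet list. For the segment of gut, 1 of 5 tested ileal genes and 3 of 6 duodenal genes were higher and 0 were lower, and the ileal Fgf15 had 0 counts in all libraries. Their part in the results for the 10 genes was not tested.

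The other genes of lipid handling, 56 listed and 43 tested, comprised 20 higher and 7 lower, and their median log2 fold change was 0.26. Of the other genes of fatty acid uptake, binding and activation, 3 of 15 tested rose and 3 fell, and the median was -0.19. Over all genes tested, 15.6% rose and 12.7% fell. Acsl6, an acyl-CoA synthetase, rose by 1.29 (SE 0.32, edgeR, adjusted p = 0.0125) from 3.51 ± 0.71 to 8.57 ± 4.99 CPM. Its highest cKO library held 17.4 CPM, and without cKO replicate 4 the log2 fold change was 0.86 (edgeR, adjusted p = 0.00721). The more abundant Slc27a2 rose by 0.54 (edgeR, adjusted p = 0.00623), from 110 to 160 CPM. Dbi rose by 0.52 (edgeR, adjusted p = 0.0147), from 231 to 331 CPM. Slc27a2 and Dbi were named after their values were seen. Slc27a3, a relative of Slc27a4, fell by 0.95 on the log2 scale (SE 0.25, edgeR, adjusted p = 0.0147), and Fabp5, the epidermal-type binding protein, fell by 0.38 (SE 0.12, edgeR, adjusted p = 0.0328). Both were scarce beside Slc27a4 and Fabp1, at 1.48 ± 0.26 and 12.6 ± 1.7 CPM in WT (SD, n = 5). The remaining gene that fell, Got2, was abundant. Got2 fell by 0.21 (edgeR, adjusted p = 0.0189), from 185 to 159 CPM, and its groups did not overlap. Got2 too was named after its values were seen. Fabp5 lost the call in 8 of 20 alternatives. Fabp3, Fabp4, Fabp7 and Acsbg2 did not pass the filter on low counts.

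Genes of glycerolipid synthesis other than the members comprised 14 tested, of which 8 rose and 4 fell, against 15.6% and 12.7% of all genes. Their median log2 fold change was 0.30. Gk, glycerol kinase, rose by 1.53 (SE 0.32, edgeR, adjusted p = 0.00851), from 10.6 to 31.8 CPM in WT libraries to 33.8 to 77.8 in cKO libraries. The 4 that fell were acyltransferases of the glycerol-3-phosphate route: Agpat4 by 0.94 (SE 0.24, edgeR, adjusted p = 0.0147), Gpam, the mitochondrial relative of Gpat3, by 0.43 (SE 0.15, adjusted p = 0.0488), Agpat5 by 0.28 (SE 0.09, adjusted p = 0.0435) and Gpat4 by 0.26 (adjusted p = 0.0164). Other acyltransferases of that route rose in the same edgeR fit, Agpat2 by 0.65 (adjusted p = 0.0181), Agpat3 by 0.36 (adjusted p = 0.00632) and Agpat1 by 0.33 (adjusted p = 0.0126). Gpat4, Agpat1, Agpat2 and Agpat3 were named after their values were seen. Gpam and Agpat5 lay close to the threshold and lost the call in 13 and 11 of 20 alternatives. Gpat3 thus rose while its relatives Gpam and Gpat4 fell, each beyond its own threshold, and the differences between these genes were not tested.

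Of the other genes of lipid droplets and lipases, 9 of 14 rose and 0 fell (median 0.51), against 15.6% and 12.7% of all genes. Lipa, the lysosomal acid lipase, rose by 1.69 (SE 0.19, edgeR, adjusted p = 5.87e-04), from 14.9 ± 4.1 to 48.0 ± 7.8 CPM. Cidec rose by 1.35 (SE 0.31, edgeR, adjusted p = 0.0103) and Cideb by 1.34 (SE 0.35, edgeR, adjusted p = 0.0203). Both encode proteins of the lipid droplet surface, and Cideb also acts in the lipidation of lipoproteins. Their groups did not overlap, in contrast to those of Plin2.

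**Figure D5:**
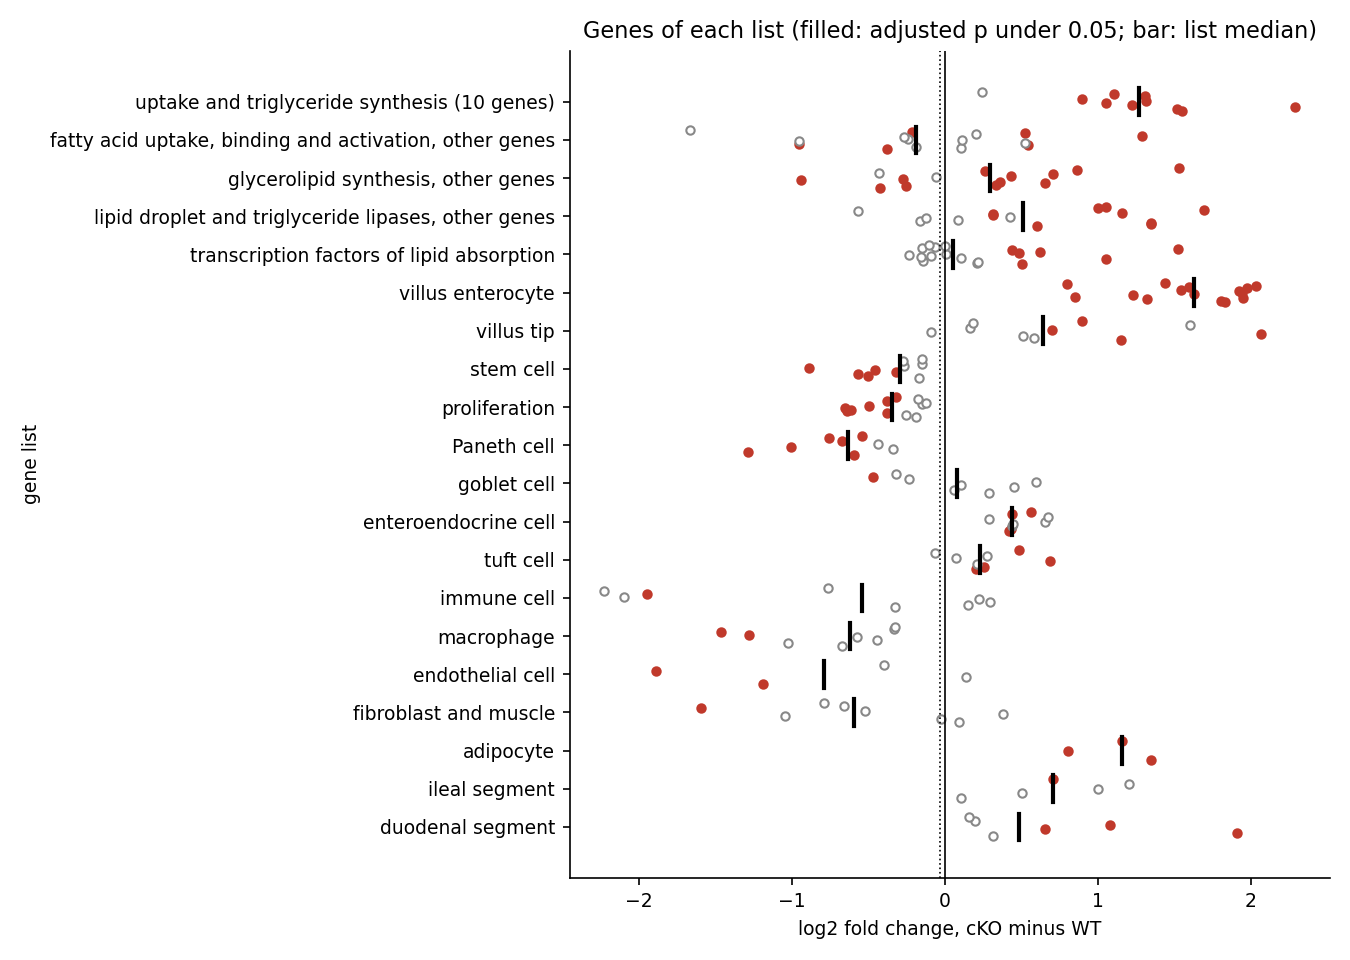
Log2 fold change, cKO minus WT, of every tested gene of each list drawn, with filled red points for an adjusted p under 0.05, open grey points for the rest and a bar at the list's median. The circadian clock list and the fasting and PPAR response list are not drawn. The median of the 10 genes of uptake and triglyceride synthesis (1.27) stands between those of the adipocyte list (1.16, 3 genes tested) and the villus enterocyte genes (1.63). The lists of stem, proliferating and Paneth cells lie below 0.

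Of 18 transcription factors of lipid absorption, 6 rose and 0 fell, against 15.6% and 12.7% of all genes tested. Their median log2 fold change was 0.05. Creb3l3, a membrane-bound factor of lipid metabolism, rose by 1.52 (SE 0.39, edgeR, adjusted p = 0.0191) from 49.1 ± 27.6 to 141 ± 33 CPM. Its adjusted p was 0.0524 without the filter on low counts (edgeR). Hnf4g rose by 1.05 (SE 0.14, edgeR, adjusted p = 9.26e-04), from 80.7 to 125.5 CPM in WT libraries to 178 to 276 in cKO libraries. The more abundant Hnf4a did not pass, with a mean of 1151 CPM in WT and 1040 in cKO. Its log2 fold change was -0.15 (edgeR, adjusted p = 0.120), and Hnf4a was named after its values were seen. The nuclear receptors Nr1h4 (0.62, adjusted p = 0.0336), Ppara (0.50, adjusted p = 0.0226), Nr1h3 (0.48, adjusted p = 0.0177) and Rxra (0.43, adjusted p = 0.00188) rose in the same edgeR fit. Of these, the groups overlapped for Ppara and Nr1h3, and the call was lost in 7 of 20 alternatives for Nr1h4 and in 6 for Ppara, among them library size only and limma on TPM. In the list of fasting and PPAR response genes, 9 of 14 rose and 0 fell (median 0.54), and in the circadian clock list 5 of 15 rose and 0 fell (median 0.24). Feeding state and time of day are not given in the sources used here, and their part in the results was not tested.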

How the data were processed

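Poly(A) RNA of crypts from 5 WT and 5 cKO mice was sequenced. Reads were run by the authors through nf-core/rnaseq with STAR and RSEM on Ensembl release 95 of GRCm38. The authors deposited, per gene and library, expected counts, TPM, FPKM and transcript lengths, with no filter and no normalisation between libraries. The deposited FPKM values were not used. RSEM divides reads that match several genes, and the strand setting is not stated. Rows without a gene symbol held 0.0193% of the counts.

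The members and lists were chosen with earlier results of these data known. Rounded expected counts were tested with edgeR 4.0.16 under R 4.3.3: filterByExpr (minimum count 10, total 15), TMM, the robust quasi-likelihood test, and p-values adjusted by Benjamini-Hochberg over 14719 genes, threshold 0.05. The study used DESeq2. CPM is on TMM library sizes. At totals of 27050455 to 31053622 counts per library, the spread between animals sets the precision of most members. Ratios of 2 genes were compared in TPM with exact permutation tests over 5 against 5 libraries, whose smallest p is 0.00794. Symbols followed the Ensembl identifiers in GENCODE vM21 of the same build. No 2 libraries agreed within sampling noise.

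Named genes were Arid3a, the members, the 5 most changed genes in each direction (at least 1 CPM) among the other lipid genes, transcription factors past the threshold, and the 5 genes most like the members among libraries. The settings varied were the tool (DESeq2 1.42.0, limma-voom, limma 3.58.1 on log2(TPM + 0.5)), the scaling (RLE, library totals, an effective length offset), the filter (none, or 10 counts in every library), a replicate block, and the animals left out. The code was tested on simulated data.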

Additional observations from a re-analysis of the deposited data

Results flagged for a closer look

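In TPM, the level of Acsl5 in cKO replicate 3 was 473, apart from the other 4 cKO libraries at 601 to 637, with a gap of 0.781 of the group's whole range. It still lay above all 5 WT libraries. It was the 1 value flagged among 46 groups of 5 libraries examined for the 10 genes and their 3 ratios, where chance flags about 1 in 20.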

How the results depend on the processing

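All 200 refits of the 10 genes, 20 alternatives each, gave a log2 fold change above 0, and 179 stayed on their side of the threshold, while 20 lost the call and 1 (Plin2 without WT replicate 5) gained it. Of the members, 9 were higher in cKO with DESeq2, RLE factors, library size only, at least 10 counts in every library, limma-voom, limma on TPM and the effective length offset, and 8 without WT replicates 3 and 4. Without a filter, 5 were, as the adjusted p rose to 0.109 for Fabp1, 0.0619 for Fabp2, 0.0504 for Cd36 and 0.0705 for Mogat2, and more genes were tested. Leaving out 1 animal gave 5 to 9 members higher, 5 without cKO replicate 5, and 0 lower. Over all genes, 1401 were higher with limma on TPM and 1472 without WT replicates 3 and 4, and 4030 were lower with library size only and 671 without WT replicates 3 and 4. Leaving out 1 animal gave 1760 to 2572 higher and 1131 to 2112 lower, fewest lower without WT replicate 4. The difference in the log2 ratio of Dgat1 to Dgat2 was -0.45 in CPM and -0.66 to -0.50 with 1 animal left out, and the exact permutation test lost the call in CPM and in 5 of those 10 fits. The other 2 ratios changed neither direction nor call. Without cKO replicate 5, Cideb (adjusted p = 0.0502) and Nr1h3 (adjusted p = 0.0530) also lost the call in edgeR. The cause of these changes was not tested.

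Libraries with the same replicate number did not deviate together (correlations of -0.157 to 0.131), so the numbers were not taken as pairs. With the replicate number as a block, 1861 genes were higher and 1191 lower, 8 members were higher, and Cd36 had an adjusted p of 0.0880 (edgeR). The block also took the call from Creb3l3 (edgeR, adjusted p = 0.0571), Gpam and Agpat5 among the other named genes. Over the 5 same-number pairs the log2 ratio of Dgat1 to Dgat2 differed by -0.57, with an adjusted p of 0.188 in an exact sign-flip test whose smallest unadjusted p is 0.0625. Depth limits Cd36 most, at 1.88 CPM in its lowest library.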
